A study of Mus musculus with 3 samples.

Results

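The genes described here encode the proteins of the cytosolic ribosome. They were chosen by symbol alone, as mouse genes whose RefSeq symbol is Rpl or Rps followed by a number and, in some, by one of the endings a, a1, x, l or l1. The rule found 78 of the 18951 genes named on the arrays, 47 of the large subunit and 31 of the small subunit, read by 113 probes. Of the 78 genes, 72 are core ribosomal proteins and 6 are paralogs of a core gene (Rpl3l, Rpl7l1, Rpl22l1, Rpl39l, Rps27l and Rps4l, the last annotated by RefSeq as a transcribed pseudogene). A further 5 RefSeq symbols that meet the rule matched no named probe.

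The study set fibroblasts given thyroid and reprogramming factors beside cultured thyroid cells, with 1 microarray for each of 3 cultures of ICR mice. The culture labelled 7 factors was made from fibroblasts of E13.5 embryos, infected with retroviruses on 2 occasions. The viruses carried Oct3/4, Sox2, Klf4 and c-Myc, the classical reprogramming set, together with Pax8, Nkx2.1 and Foxe1, which act in thyroid development. The culture labelled 8 factors received the same set plus Hhex, and both were collected after 21 days, the last 2 weeks in DMEM/F12 with 10% serum, non-essential amino acids, N2 and B27 supplements, 1 µg/mL potassium iodide and 1 U/mL thyroid stimulating hormone. The primary culture held thyroid follicular cells of adult mice, kept in that medium for 1 week. RNA came from whole cultures, in which fewer cells of a type and less RNA per cell cannot be told apart, and no array of uninfected fibroblasts is used here. There was 1 sample per group, so no difference has a replicate check, no test was made and no p-value is given.

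A cytosolic ribosome is built from a large and a small subunit, each made of ribosomal RNA and 1 copy of most of its proteins. The large subunit joins amino acids, and the small subunit reads the messenger RNA. The mRNAs of ribosomal proteins belong to the terminal oligopyrimidine (TOP) class: they typically start with a C followed by a run of C and T, through which the kinase complex mTORC1 and the RNA-binding protein Larp1 control their translation. Growing cells make large amounts of these mRNAs, and c-Myc, delivered to both induced cultures, is known to drive genes of ribosome production. Several copies of these genes have been spread through the mouse genome as processed pseudogenes, so a probe for one may also bind RNA of a near-identical copy.

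Runs of pyrimidines near annotated start sites were more frequent in the set than over all genes, though most windows held none of 8 or more. RefSeq start windows (build GRCm38.p6) were found for 59 of the 78 genes, as 71 windows of 41 bases from 20 before to 20 after the annotated first base. The search was for the longest run of C or T, in any order and on the sense strand only. A run of 8 or more was present in 31 of the 71 windows (43.7%), against 16.5% of the 32851 windows of all genes. The windows printed below belong to genes whose values are described later, read in the sense direction. The longest run is in capitals, or the first of them where runs are equally long.
Rps18, chr17:33955645-33955685, minus strand: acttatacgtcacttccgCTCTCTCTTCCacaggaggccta
Rpl27a, chr7:109519175-109519215, plus strand: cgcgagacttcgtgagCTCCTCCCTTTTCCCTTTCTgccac
Rpl14, chr9:120571497-120571537, plus strand: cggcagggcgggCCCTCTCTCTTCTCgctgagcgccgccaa
Rps4x, chrX:102189371-102189411, minus strand: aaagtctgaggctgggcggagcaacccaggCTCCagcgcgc
Rpl39, chrX:37085202-37085242, minus strand: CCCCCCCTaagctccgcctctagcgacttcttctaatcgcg
Rpl39l, chr16:10170208-10170248, plus strand: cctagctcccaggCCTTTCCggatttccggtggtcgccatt
The run was 20 bases long in Rpl27a, 14 in Rpl14, 11 in Rps18 and 8 in Rpl39. In Rpl39 the run in capitals lies at the upstream edge of the window, before the annotated first base. An equally long run in that window, cttcttct, lies after that base. The longest run was 4 in Rps4x and 7 in the paralog Rpl39l, a gene best known from the testis. These runs describe the annotated windows, which need not be the start sites used in these cultures.

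The level of a gene is given below as the log2 of its processed signal minus the 75th percentile of the same array, from the brightest probe of the gene. Levels of different genes come from different probes and are not ranked. Between 64.2% and 78.2% of spots were well above background, no spot was saturated, and the 75th percentile of the signal was 4.34 and 5.03 times as high on the 7-factor and 8-factor arrays as on the primary array. Both induced cultures lay on 1 slide and scan and the primary culture on another, so slide and culture cannot be told apart in comparisons with the primary culture. The scanner error of a difference was 0.204 on the log2 scale for most of the 78 genes, an error of spot reading that leaves the culture out. The primary array carried its label: all 7 thyroid markers were well above background there and at least 2-fold lower in both induced cultures, where 5 (7 factors) and 4 (8 factors) were well above background and Iyd was in neither. It also held all 7 leukocyte markers, with a summed signal of 78.6 times the 75th percentile against 0.183 (7 factors) and 0.148 (8 factors), and 3 of 3 C cell and parathyroid markers, with 363 against 1.25 and 6.54. The summed signal of 7 fibroblast markers was 198 and 133 times the 75th percentile in the induced cultures and 89.7 in the primary culture, and that of 4 epithelial markers was 124 and 96.6 against 431. These cell types move with every comparison with the primary culture below, and their part in the ribosomal values was not tested.

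Nearly all core genes were bright on every array. The median level of the 72 core genes was 6.50 with 7 factors (range 1.58 to 7.54), 5.99 with 8 factors (0.27 to 6.95) and 6.78 in the primary culture (0.93 to 8.61). Of these 72 genes, 67, 62 and 62 stood at a level of 5 or more. The paralogs were more varied: Rpl22l1 and Rps27l had levels of 5.20 or more on every array, whereas Rpl3l was close to background on all of them.

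**Figure D1:**
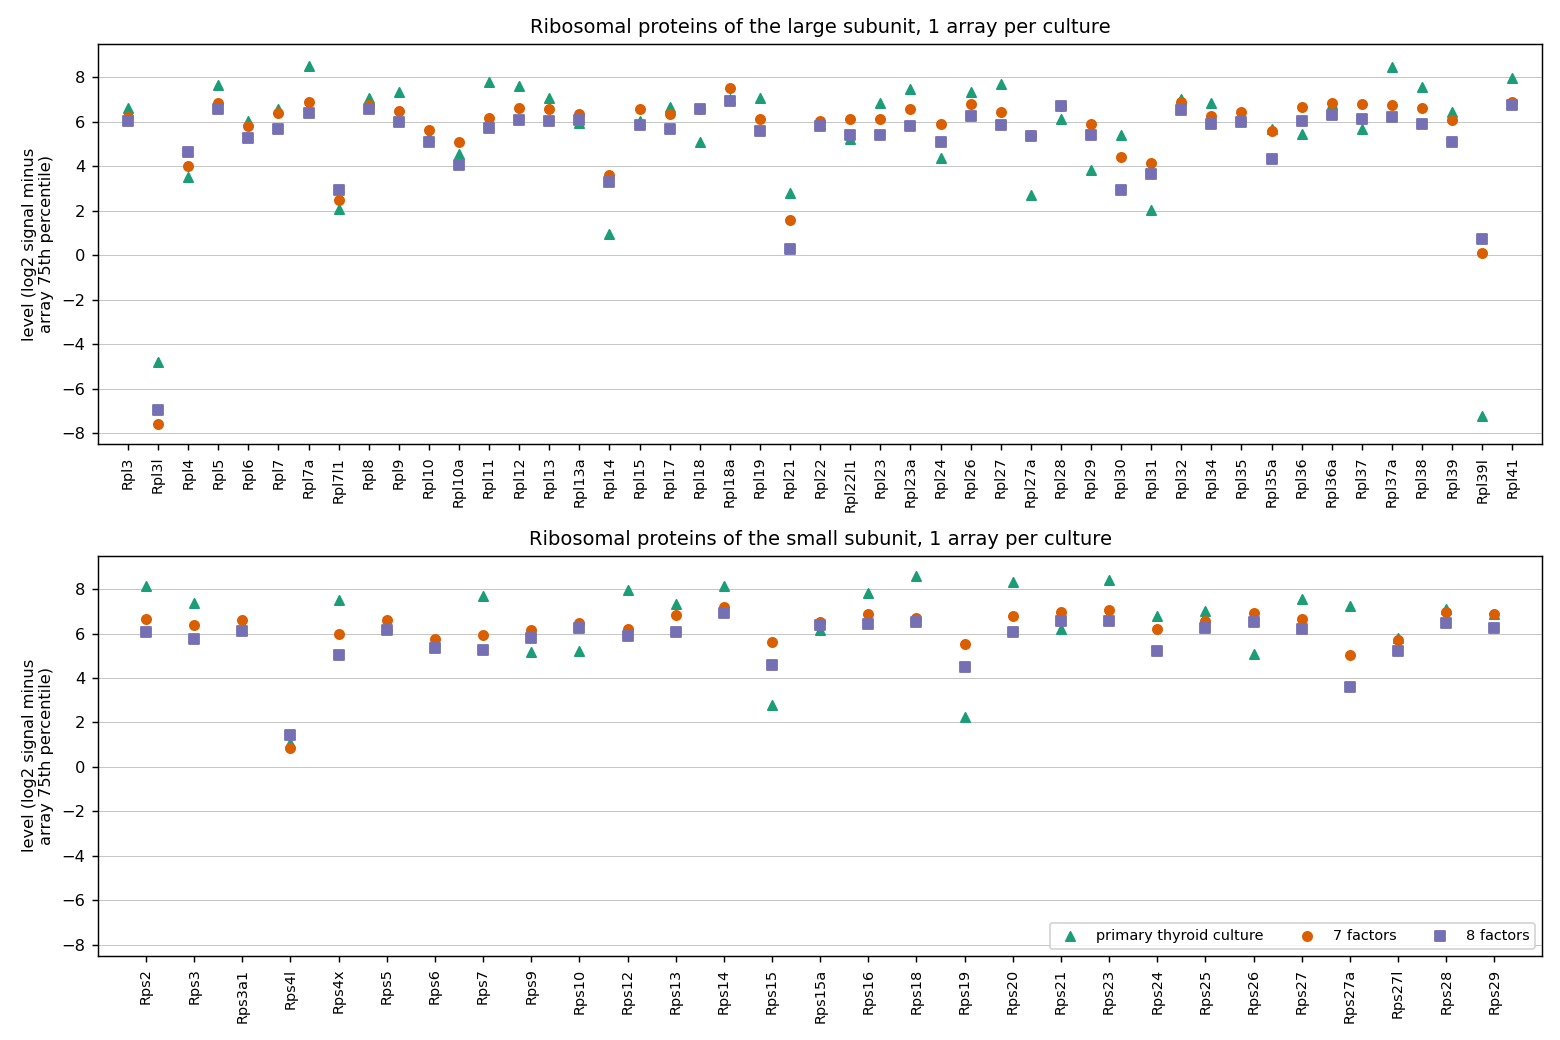
Level of each of 76 ribosomal protein genes (log2 signal minus the 75th percentile of the array) in the primary culture (triangles), the 7-factor culture (circles) and the 8-factor culture (squares), 1 array each, with the large subunit above and the small subunit below. Squares lie below circles for 69 of the 76 genes, while triangles lie far above them in genes such as Rps27a and far below in genes such as Rps19.

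The comparison of the induced cultures asks what differs when Hhex is added to the 7 factors, and here nearly all ribosomal protein genes shared a direction. With 8 factors, 71 of the 78 genes had a lower level than with 7 factors (57.4% of the 16262 genes compared were lower by any amount). The median difference was -0.51, with quartiles of -0.67 and -0.32, beside a median of -0.09 over all genes. At least 2-fold lower were 8 of the 78 genes (4.04% of all genes) and at least 2-fold higher were 0 (4.54% of all genes). In the core set, all 29 small subunit genes and 40 of 43 large subunit genes were lower, and the exceptions were Rpl4, Rpl18 and Rpl28.

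Other brightly read genes were also lower with 8 factors, though by less. The 356 genes outside the set with a mean level of at least 5 had a median difference of -0.31, and 305 of them (85.7%) were lower. The 65 ribosomal protein genes with such levels had a median of -0.51, and 63 of them (96.9%) were lower. Under quantile normalization, which gives all arrays the same distribution of signals, the median over the 72 core genes was -0.19 and 54 of them were lower. It was -0.57 after scaling to the array median, -0.47 after normexp background correction and -0.30 with no scaling between arrays, so the direction held under all 5 and the size did not.

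The genes of the translation machinery nearest to the rule showed similar differences. The list of 8 ribosomal proteins that the symbol rule misses (among them the stalk proteins Rplp0, Rplp1 and Rplp2, the ubiquitin-like fusion gene Fau, and Rpsa, Rack1 and Rpl36al) had a median difference of -0.51, with 7 of 8 lower. Of 15 elongation factors and other TOP mRNAs, 12 were lower, with a median of -0.45. Initiation factors (16 genes, median -0.02), ribosome biogenesis factors (24 genes, -0.05), RNA polymerase I and its factors (11 genes, 0.19) and mitochondrial ribosomal proteins (75 genes, -0.14) had medians nearer to that of all genes. The lists also differ in brightness. Many initiation, biogenesis and RNA polymerase I genes had lower levels than most of the TOP mRNAs, and other bright genes were lower with 8 factors too (median -0.31). The part of brightness in these medians was not tested. Quantile normalization brought the TOP median to -0.14 and that of the 8 other ribosomal proteins to -0.081, with 5 of 8 lower.

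The difference between the induced cultures had an SD of 0.34 over core genes, close to the 0.35 over the 356 other bright genes. A few core genes lay well outside that spread. Rps27a, made as a fusion of ubiquitin with a small subunit protein, had levels of 5.04 with 7 factors, 3.59 with 8 factors and 7.22 in the primary culture. The 8-factor culture was the lowest, 2.73-fold below the 7-factor culture. Rpl30 of the large subunit had levels of 4.39, 2.91 and 5.42 in the same order, which is 2.80-fold lower with 8 than with 7 factors. Rpl35a, a large subunit gene mutated in Diamond-Blackfan anaemia, had levels of 5.57, 4.30 and 5.69: the 7-factor and primary cultures were close and the 8-factor culture was 2.41-fold below the first. These 3 genes were at least 2-fold lower under each of 6 settings of scaling, background correction and choice of probe (1.36% of all genes were). Each has 1 probe, so the settings on the choice of probe could not change it, and the differences ran over the rest from -1.66 to -1.35 for Rps27a, from -1.68 to -1.41 for Rpl30 and from -1.46 to -1.14 for Rpl35a. At least 2-fold higher under all 6 were 0 of the 78 genes (1.83% of all genes).

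The other 5 of the 8 genes did not stay past 2-fold under all 6 settings. Rps19 (-1.04), Rpl10a (-1.03), Rpl39 (-1.01) and Rps15 (-1.01) passed it narrowly, and Rps24 (-0.98) and Rps4x (-0.96) lay just under it. Rpl21 had a difference of -1.32 by its brighter probe and 0.31 by its dimmer one, so its direction changes with the probe. In the opposite direction, Rpl4 had levels of 4.00 with 7 factors, 4.62 with 8 factors and 3.50 in the primary culture. It was the core gene that differed most upward, 1.54-fold higher with 8 than with 7 factors.

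The paralogs were split between the induced cultures, and not all of them followed the core genes. Of the 6, 4 were higher with 8 factors: Rpl39l (0.64), Rpl3l (0.63), Rps4l (0.59) and Rpl7l1 (0.46). Rpl22l1 (-0.71) and Rps27l (-0.49) were lower. Both had levels of 5.20 or more on every array, whereas the 4 higher ones had levels of 2.93 or less. The part of brightness in this split was not tested. Each paralog can be set beside its core partner. For Rpl3 (-0.18, within the scanner error), Rpl7 (-0.74), Rpl39 (-1.01) and Rps4x (-0.96) the partner went the other way. For Rpl22 (-0.24) and Rps27 (-0.45) it went the same way. Rpl3l was read near background on each array, at levels of -7.58 with 7 factors, -6.95 with 8 factors and -4.82 in the primary culture, and its difference of 0.63 compares with a scanner error of 0.39.

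**Figure D2:**
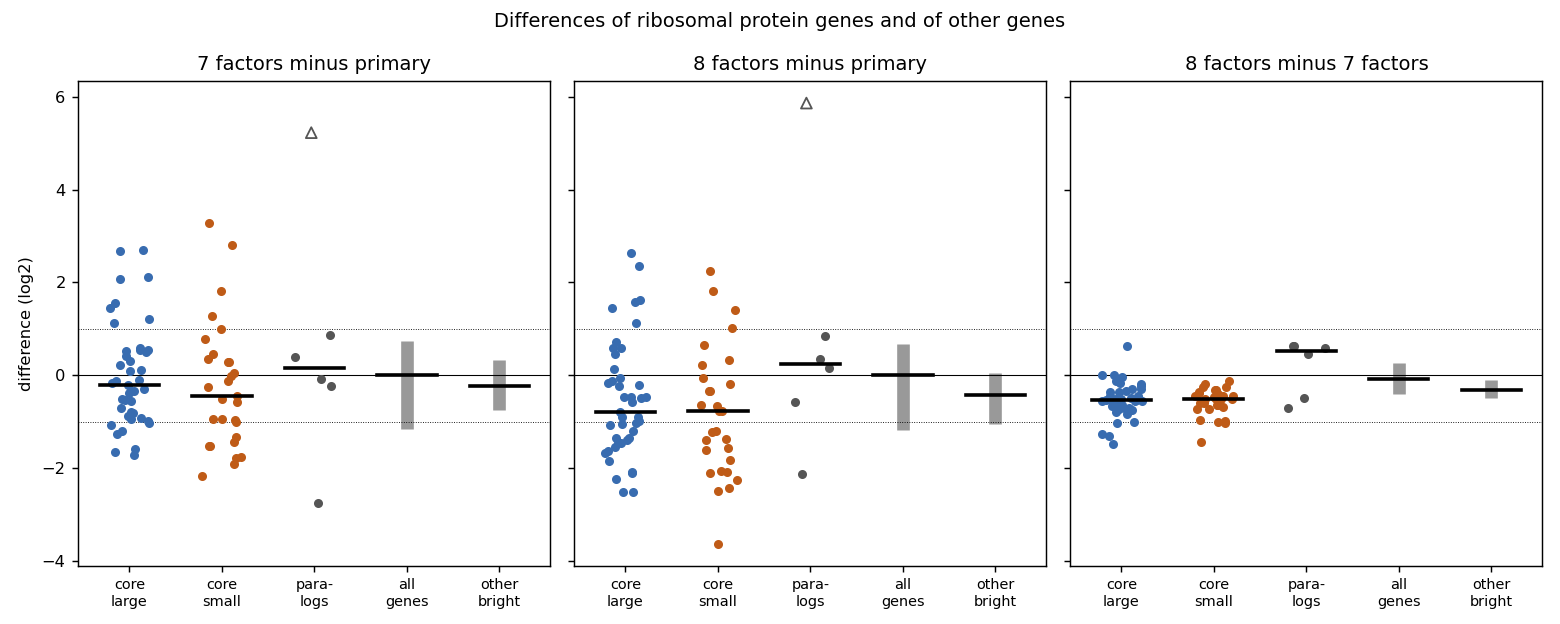
Log2 differences between cultures for 43 core large subunit genes, 29 core small subunit genes and 6 paralogs (points, with the median as a black line, and open triangles for differences that are lower bounds), beside the quartiles (grey bar) and median of all genes and of the 356 other genes with a mean level of at least 5. Dotted lines mark a 2-fold difference; with 7 factors core genes run from -2.18 to 3.28 against the primary culture, and between the induced cultures they crowd near -0.51.

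Against the primary culture the ribosomal protein genes had no common direction. With 7 factors, 14 of the 78 genes were at least 2-fold higher than in primary cells (19.1% of the 16152 genes compared were), 17 were at least 2-fold lower (27.1%) and 47 lay between. Both shares of the ribosomal genes, 17.9% and 21.8%, were below those of all genes. Among genes with a mean level of at least 5 the order was the other way. Of the 65 ribosomal genes there, 12.3% were higher and 21.5% lower, against 5.9% and 18.3% of the 356 other genes. Lower by any amount were 46 of 78 (47.7% of all genes). The median difference was -0.23, beside -0.08 for all genes measured on both arrays and -0.23 for the 356 other bright genes. Core genes ran from -2.18 (Rps27a) to 3.28 (Rps19).

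With 8 factors more genes lay on the lower side. At least 2-fold higher than in primary cells were 11 of 78 (17.8% of the 16160 genes compared) and at least 2-fold lower were 33 (27.5%), which is 42.3% of the set. Lower by any amount were 56 of 78 (48.8% of all genes). The median difference was -0.71, beside -0.14 for all genes measured on both arrays and -0.42 for the other bright genes. Both comparisons use the same primary array, so they are not independent: 10 genes were higher in both, 17 were lower in both, 0 went past 2-fold in opposite directions, and 16 were past 2-fold lower with 8 factors and not with 7.

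How many genes lay on each side depended on how the arrays were scaled. For 7 factors against primary cells, 13 core genes were higher and 16 lower as reported, 14 and 11 after scaling to the array median, 14 and 13 after normexp, 16 and 3 after quantile normalization, and 59 and 0 with no scaling. For 8 factors the same counts were 10 and 32, 10 and 26, 11 and 27, 18 and 6, and 46 and 1. The median of the 72 core genes was -0.28 as reported and 0.33 after quantile normalization for 7 factors, and -0.78 and 0.26 for 8 factors. The sign of the shared shift against primary cells is therefore not settled by these arrays, and the genes below are named for differences that kept their side of 2-fold under 6 settings unless another basis is stated.

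The order of the subunits was not the same in every comparison. For 7 factors against primary cells, 8 of 43 core large subunit genes were higher and 7 lower (median -0.22), and 5 of 29 core small subunit genes were higher and 9 lower (median -0.46). For 8 factors the counts were 6 and 18 of 43 (median -0.78) and 4 and 14 of 29 (median -0.77). Between the induced cultures the medians were -0.52 and -0.51. The large-minus-small difference of the core medians was 0.24, -0.02 and -0.01 in these comparisons. Over all 78 genes it was 0.09 and 0.19 against primary cells by the brightest probe, and it grew to 0.45 and 0.41 with the mean of the probes and to 0.69 and 0.52 with the dimmest probe.

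Among core genes of the small subunit, Rps19, Rps15 and Rps26 had the largest upward differences from primary cells. Rps19, the gene most often mutated in Diamond-Blackfan anaemia, had levels of 5.52 with 7 factors, 4.48 with 8 factors and 2.24 in the primary culture. The primary culture was the lowest, and the induced cultures were 9.70-fold and 4.73-fold higher. Rps15, a protein of the head of the small subunit, had levels of 5.61, 4.60 and 2.79, with the primary culture again lowest (7.04-fold and 3.50-fold). Rps26, which lies near the mRNA exit channel, had levels of 6.92, 6.51 and 5.09, a difference of 3.55-fold and 2.67-fold. Each of these genes was read by 1 probe. The differences of Rps19 ranged from 3.20 to 3.58 (7 factors) and from 2.24 to 2.48 (8 factors) over the 6 settings.

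Rps9 and Rps10 were smaller cases of the same direction. The levels of Rps10 were 6.50, 6.25 and 5.23 with 7 factors, with 8 factors and in the primary culture, and its differences of 1.27 and 1.02 both passed 2-fold, the second of them not under every setting. Rps9 had levels of 6.16, 5.81 and 5.16, differences of 1.00 and 0.65, and passed 2-fold with 7 factors and not with 8.

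Among core genes of the large subunit, Rpl14 and Rpl27a had the largest upward differences from primary cells. Rpl14, with the run of 14 pyrimidines printed above, had levels of 3.62 with 7 factors, 3.29 with 8 factors and 0.93 in the primary culture, which is 6.46-fold and 5.12-fold higher in the induced cultures. Rpl27a, with the longest printed run, had levels of 5.38, 5.35 and 2.71, or 6.39-fold and 6.25-fold higher, and the induced cultures were nearly equal. Rpl18 was likewise nearly equal in the induced cultures, at 6.55 and 6.56 against 5.11 in the primary culture. Rpl31 had levels of 4.14, 3.65 and 2.02 by its brighter probe, and both of its probes gave the same picture, with differences of 2.12 and 2.28 for 7 factors and 1.63 and 1.78 for 8 factors. Rpl29 had levels of 5.91, 5.41 and 3.83, and its 4 probes gave differences of 1.51 to 2.09 for 7 factors and 0.31 to 1.58 for 8 factors.

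In Rpl24, the gene mutated in the Belly spot and tail mouse, the probes also gave one direction. Its levels were 5.91 with 7 factors, 5.07 with 8 factors and 4.35 in the primary culture by the brighter probe. Its differences from primary cells were 1.56 and 1.45 for 7 factors and 0.72 and 0.17 for 8 factors, so it passed 2-fold with 7 factors and not with 8. For Rpl37, differences of 1.13 and 2.72 with 7 factors and 0.47 and 2.64 with 8 factors came from its brighter and dimmer probe.

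Of the 13 and 9 genes named next, 8 and 7 have 1 probe, which the settings on probes could not change. Nor could those settings change Rpl39l, as neither of its probes was well above background in the primary culture and the brightest was kept. Its second probe gives a bound of 1.72-fold with 7 factors. With no scaling every measured difference from primary cells is shifted upward, so it was fixed in advance that these genes passed 2-fold there too. Counting those that held under all 6 settings, 13 of the 78 genes were at least 2-fold higher with 7 factors than in primary cells (9.33% of all genes were) and 9 with 8 factors (8.97%). The 13 were Rpl14, Rpl18, Rpl24, Rpl27a, Rpl29, Rpl31, Rpl37, Rpl39l, Rps9, Rps10, Rps15, Rps19 and Rps26, and the 9 were Rpl4, Rpl14, Rpl18, Rpl27a, Rpl31, Rpl39l, Rps15, Rps19 and Rps26. At least 2-fold lower under all 6 were 3 genes with 7 factors (21.3% of all genes) and 6 with 8 factors (22.2%).

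Rps27a was the core gene furthest below primary cells. From the levels given above it was 4.54-fold lower with 7 factors and 12.4-fold lower with 8 factors, and over the 6 settings the differences ran from -2.18 to -1.64 and from -3.63 to -2.99. Rps7, another gene mutated in Diamond-Blackfan anaemia, had levels of 5.94, 5.26 and 7.69, with the primary culture the highest (3.37-fold and 5.40-fold). Rps4x, the X-linked gene of a small subunit protein, had levels of 5.98, 5.02 and 7.51. It was 5.61-fold lower with 8 factors and stayed past 2-fold under all 6 settings, whereas the 2.89-fold difference with 7 factors fell short of 2-fold under some.

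Rpl30 and Rpl35a also stayed lower with 8 factors than in primary cells under all 6 settings, at 5.69-fold and 2.62-fold. With 7 factors Rpl30 was 2.03-fold lower and Rpl35a 1.09-fold lower, so most of their distance from primary cells lay between the induced cultures. Rpl3l, the paralog of Rpl3 known from heart and skeletal muscle, was the remaining gene lower in both comparisons under the 6 settings, with signals near background. These lower calls did not hold with no scaling between arrays, which is not among the 6: past 2-fold there were 0 of the 3 genes with 7 factors and 1 of the 6 with 8 factors. Unscaled, Rps27a differed from primary cells by -0.063 with 7 factors and -1.30 with 8 factors, and Rps7 by 0.37 and -0.10. With 8 factors Rpl30 differed by -0.18, Rps4x by -0.16, Rpl35a by 0.94 and Rpl3l by 0.20.

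A group of very bright genes was lower in both induced cultures, and more so with 8 factors. These differences depended on scaling and, where a gene had several probes, on the probe. Rps18 had levels of 6.70 with 7 factors, 6.50 with 8 factors and 8.61 in the primary culture, and was 3.77-fold and 4.32-fold lower by its brightest probe. Its second probe, at 6.80, 6.48 and 6.96, differed by -0.16 and -0.49 and did not reach 2-fold. Rpl37a had levels of 6.76, 6.22 and 8.47 and was 3.27-fold and 4.74-fold lower. Rps12 had levels of 6.20, 5.89 and 7.98 and was 3.43-fold and 4.25-fold lower. Rpl7a, at 6.90, 6.39 and 8.50, was 3.02-fold and 4.31-fold lower by its brightest probe, while its 3 probes ran from -1.80 to 0.39 and from -2.74 to 0.46. The stalk genes Rplp0, Rplp1 and Rplp2, whose proteins recruit elongation factors to the large subunit, were lower too, by 2.20, 2.00 and 1.54 on the log2 scale with 7 factors and by 3.33, 2.54 and 2.02 with 8 factors. Without scaling between arrays Rps18, Rpl37a, Rps12 and Rpl7a all turned to small positive differences, between 0.09 and 0.52.

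Probes of a gene often disagreed against primary cells, and rarely between the induced cultures. Of the 78 genes, 49 have 1 probe and 29 have several. For 7 factors against primary cells, 28 genes had several probes well above background on both arrays. The median gap between the highest and lowest difference within a gene was 1.67, against 0.93 over 4959 other genes and 0.78 over 153 other bright genes. The probes had opposite signs in 19 of the 28 genes (67.9%), against 35.9% of the 4959, and the brightest probe gave the lowest difference in 18 of the 28. For 8 factors against primary cells the median gap was 1.81 (0.75 in other genes). Between the induced cultures it was 0.32 over 29 genes, below the 0.53 of 5656 other genes, and opposite signs occurred in 5 of the 29 (17.2%, against 47.7%).

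The widest gaps show what the choice of probe does. Rpl21 had levels of 1.58, 0.27 and 2.78 with 7 factors, with 8 factors and in the primary culture by one probe and -1.49, -1.18 and -3.34 by the other. The first probe puts the primary culture highest and the second puts it lowest: the differences from primary cells were -1.19 and 1.85 with 7 factors and -2.51 and 2.16 with 8 factors. Rps3, a protein of the mRNA entry channel, had differences of -1.01 and 1.41 with 7 factors. Rpl5, which carries a small ribosomal RNA into the large subunit, had -0.80 and 1.92, and Rpl23 had -0.71 and 1.55. In Rps21 the brighter probe was the higher one, at 0.78 against -1.62.

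Read probe by probe rather than gene by gene, the split against primary cells was closer to even. With 7 factors, 27 of 111 probes were at least 2-fold higher and 20 lower, with a median difference of -0.02, and with 8 factors 20 were higher and 38 lower (median -0.47). Between the induced cultures 99 of 113 probes were lower, with a median of -0.50, so that difference did not rest on the choice of probe. The files hold no probe sequences, and binding to near-identical copies or to other ends of an mRNA was not tested.

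**Figure D3:**
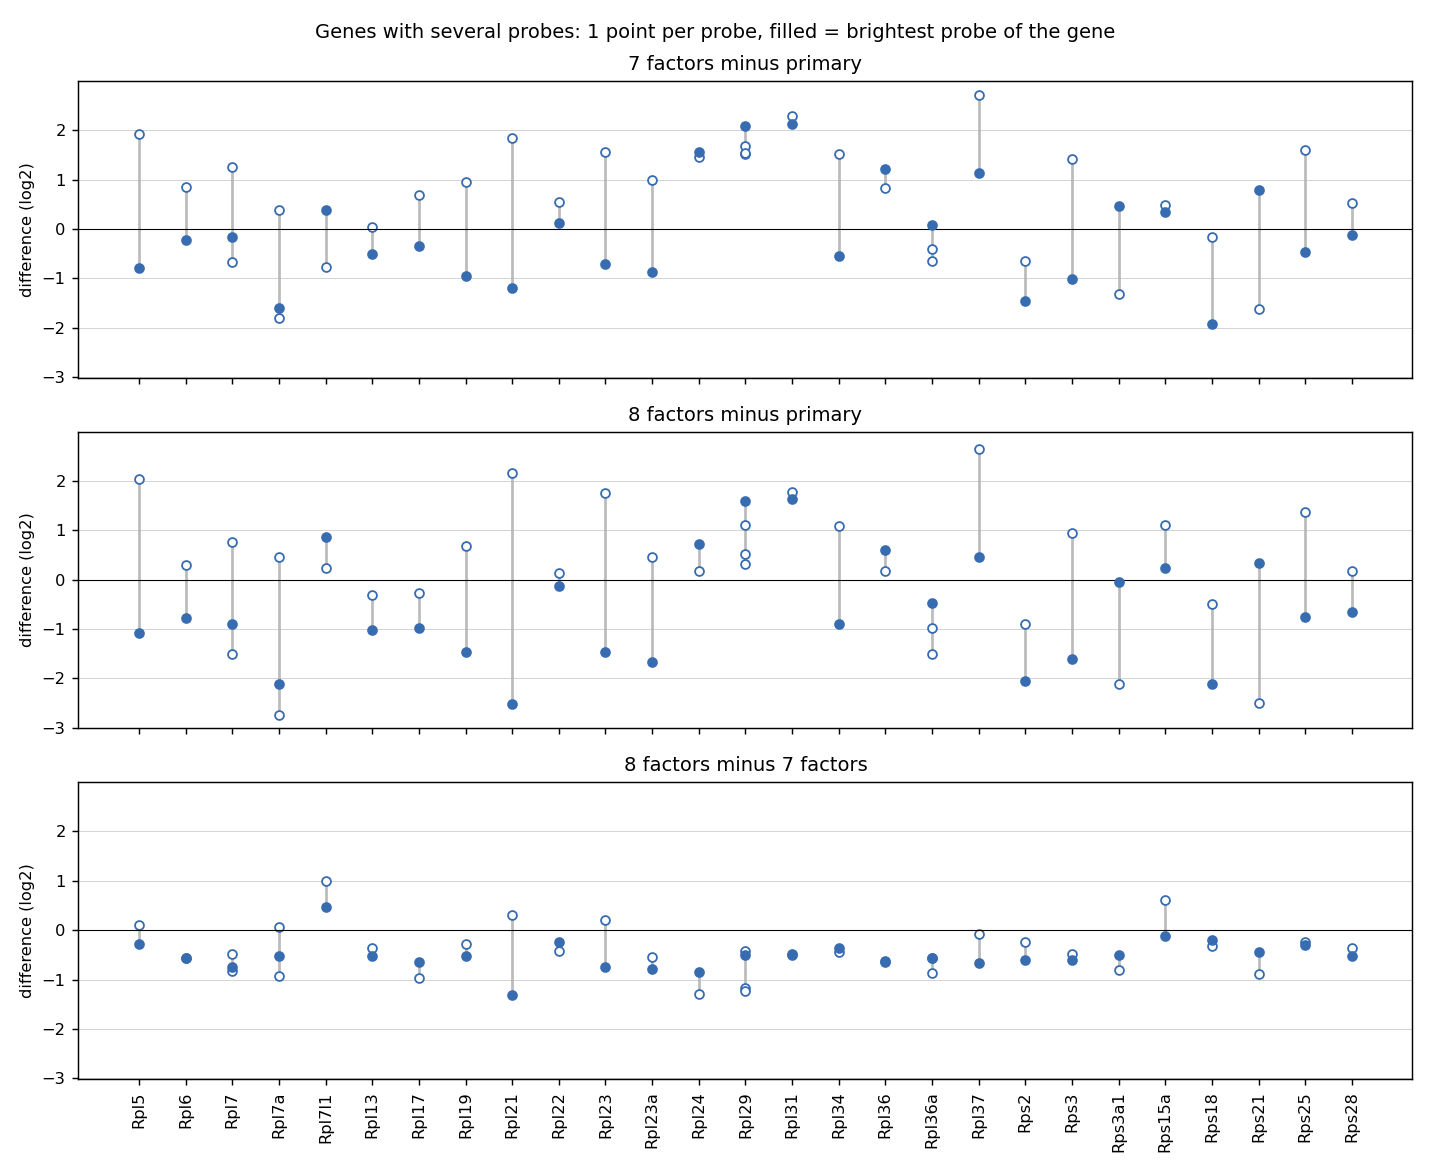
Log2 difference of each probe for 27 ribosomal protein genes with several probes well above background on all 3 arrays, with the brightest probe of each gene filled and the probes of a gene joined by a line. Lines are long in both comparisons with the primary culture (median gaps of 1.67 and 1.81 over 28 genes) and short between the induced cultures (0.32 over the 29 genes measured there), where most probes lie below 0.

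Rpl39l was the member with the clearest contrast to primary cells. Its core partner Rpl39 lines the tunnel through which the new protein leaves the ribosome, and Rpl39l is known to take its place in the testis. The levels of Rpl39l were 0.08 with 7 factors and 0.72 with 8 factors (signals of 2315 and 4171), while the primary culture was not well above background, with a signal of 3.31. By this probe it was at least 37.5-fold higher with 7 factors and at least 58.4-fold higher with 8 factors, where the lowest signal well above background on the primary array stands in for the dim reading. After normexp these bounds on the log2 scale were 2.83 and 3.58, against 5.23 and 5.87. The second probe of the gene was also above background in both induced cultures and not in the primary culture, but its levels of -4.37 and -3.17 give bounds of 1.72-fold and 3.95-fold. Rpl39 itself had levels of 6.08, 5.07 and 6.43.

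The other paralogs differed less from primary cells. Rpl22l1, whose levels were 6.10 with 7 factors, 5.39 with 8 factors and 5.24 in the primary culture, was 1.82-fold and 1.11-fold higher, beside 6.04, 5.80 and 5.92 for Rpl22. Rps27l, a paralog of Rps27 known as a p53 target, had levels of 5.69, 5.20 and 5.78, beside 6.64, 6.19 and 7.57 for Rps27. Rpl7l1 had levels of 2.47, 2.93 and 2.07 and differed from primary cells by under 2-fold. Rps4l, at 0.83, 1.42 and 1.07, was below the primary culture with 7 factors and above it with 8 factors, which depends on the scaling.

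Lists of genes that make ribosomes had medians above 0 against primary cells. Of 24 ribosome biogenesis factors, 7 were at least 2-fold higher and 1 lower with 7 factors (median 0.65), and again 7 and 1 with 8 factors (median 0.69). Over all genes 19.1% were higher and 27.1% lower with 7 factors, and 17.8% and 27.5% with 8 factors. Mdn1, which removes assembly factors from the maturing large subunit, had levels of 2.76, 2.72 and -0.11, with differences of 2.87 and 2.83, and Wdr12, a partner of Bop1 and Pes1, had differences of 1.94 and 1.99. Nop10, a subunit of the particle that pseudouridylates ribosomal RNA, differed by 1.72 and 1.38, and the exception was Rrp12 at -1.28 and -1.09. Of 11 genes of RNA polymerase I and its factors, 4 were higher and 1 lower with 7 factors (median 0.78) and 5 and 0 with 8 factors (0.81), Taf1d (1.77 and 1.81) and Polr1b (1.52 and 1.48) among them.

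Mitochondrial ribosomal proteins, which serve a separate ribosome, were on the higher side as well. Of 75 genes, 21 were at least 2-fold higher and 2 lower with 7 factors (median 0.45), against 19.1% and 27.1% of all genes. With 8 factors 13 were higher and 1 lower (median 0.40), against 17.8% and 27.5%. The 17.3% of the list that was higher with 8 factors was thus close to the share of all genes. Higher by any amount with 8 factors were 63 of the 75 (43.9% of all genes). The medians of this list, of the biogenesis factors, of RNA polymerase I and of the 16 initiation factors (0.26 and 0.18) stayed above 0 against primary cells under all 5 scalings run. Median scaling and no scaling shift every measured difference from primary cells upward, so neither could bring these medians below 0. Quantile normalization and normexp could, and after quantile normalization the initiation factors had medians of 0.23 and 0.29. The median of the 8 ribosomal proteins outside the rule changed sign with the scaling: it was -1.15 and -1.83 as reported and 0.15 and 0.16 after quantile normalization. The 15 elongation factors and other TOP mRNAs had medians of -0.005 with 7 factors and -0.43 with 8 factors. After quantile normalization these were 0.097 and 0.10. Of 13 genes of mTORC1 and TOP control (medians 0.40 and 0.18, above 0 under all 5 scalings as well), 1 was higher and 1 lower with 7 factors. The translation repressor Eif4ebp2 was the higher one, with levels of 2.34 with 7 factors, 0.45 with 8 factors and -0.10 in the primary culture, and the 7-factor culture stood above both others.

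**Figure D4:**
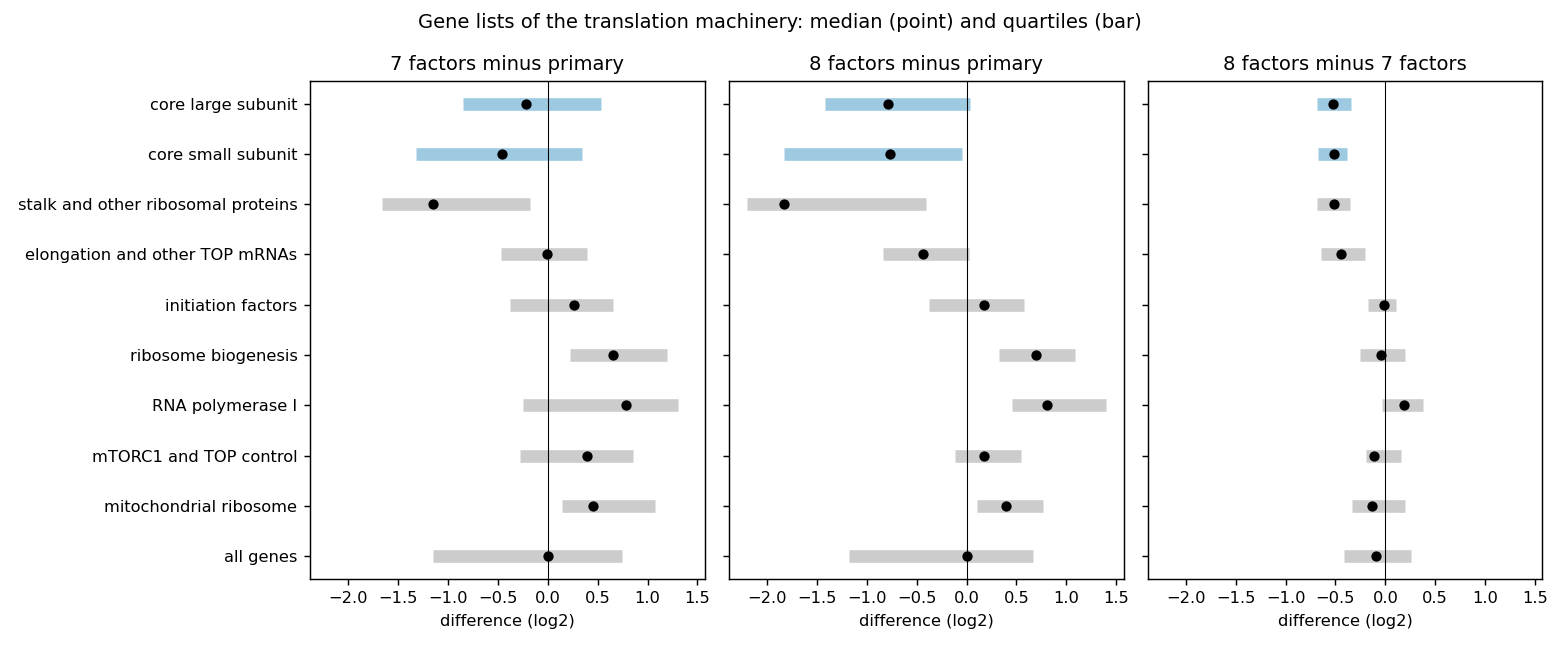
Median (point) and quartiles (bar) of the log2 differences of gene lists of the translation machinery and of all genes, 1 panel per comparison, with core ribosomal proteins in blue. Against primary cells the core ribosomal proteins have medians below 0 while ribosome biogenesis, RNA polymerase I and the mitochondrial ribosome lie above 0; between the induced cultures the ribosomal proteins and TOP mRNAs lie near -0.5 and the other lists near 0.

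Core genes with and without a pyrimidine run at an annotated start can be set side by side. For the 28 core genes with a run of 8 or more, the median difference was -0.03 (7 factors against primary), -0.55 (8 factors against primary) and -0.37 (8 against 7 factors). For the 26 core genes with a window and no such run it was -0.52, -1.13 and -0.56. The ranges of both groups overlapped almost completely in each comparison with primary cells, from -1.91 to 2.69 and from -1.75 to 3.28 with 7 factors.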

How the data were processed

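Total RNA was labelled with Cy3 and read on 1-colour 4x44K mouse arrays, 1 per culture, per the labels' protocols and the file headers. The deposited values are intensity values: processed signals after background subtraction by Feature Extraction 11.5.1.1 per the file headers (version 10.5 per the submitters' processing notes), with marks for spots above background. The deposited value table equals these signals, unscaled. Control spots and outliers were left out, copies of a probe averaged, and the 75th percentile of each array subtracted on the log2 scale. Of 41171 probes, 27815 (67.6%) were named through RefSeq accessions. A gene was compared where well above background on 1 of both arrays. Below background on the other, the difference is a bound from the lowest signal well above background there. Calls of higher and lower required a 2-fold difference. The 6 settings were 75th percentile, median and quantile scaling, normexp (offset 50), and the mean or dimmest of the probes of a gene. Normexp used median signals, since no mean signal column is in the files. R 4.3.3 with limma 3.58.1 and Python 3.11.15 were used, and the calculations were tested on simulated data. Members, lists and named genes were chosen with earlier results of these data known. The named genes are those called, the largest differences, the paralogs with their partners, the widest probe gaps, and up to 4 genes of each other list. The values of some genes are not reported here.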

Additional observations from a re-analysis of the deposited data

Results flagged for a closer look

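For Rpl10, Rpl10a, Rpl35 and Rps4l the induced cultures lay on opposite sides of the primary culture, each by more than the scanner error of a spot. Rpl10 differed from the primary culture by 0.30 with 7 factors and -0.22 with 8 factors (log2). Rpl10a differed by 0.55 and -0.49, and Rpl35 by 0.21 and -0.23. Rps4l, the transcribed pseudogene, ran the other way, at -0.24 and 0.35. All 8 values share the primary array and none reached 2-fold. They also depend on the scaling. Scaling to the array median moved the median of the core genes from -0.28 to 0.02 with 7 factors and from -0.78 to -0.54 with 8 factors. Under the same shift Rpl10, Rpl35 and Rps4l no longer lie on opposite sides of the primary culture. With 1 array per culture, the difference between the induced cultures was not tested.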

How the results depend on the processing

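The direction between the induced cultures held in every setting run, and that against primary cells did not. Another scaling shifted the median of all genes measured on both arrays from -0.08 and -0.14 (7 and 8 factors against primary) to 0.22 and 0.11 (array median) or 2.04 and 2.20 (no scaling). The median of the 78 genes, 7 factors against primary, was 0.071 with median scaling, 1.89 unscaled, 0.30 with quantile normalization, -0.0083 with normexp, 0.055 with mean probes and 0.25 with dimmest probes. For 8 factors these were -0.47, 1.62, 0.27, -0.47, -0.43 and -0.25. Between the induced cultures it was -0.30 unscaled and -0.18 with quantile normalization. The next values are relative to the median of all genes compared, bounds included. As reported, 1175 genes in each comparison with primary cells stood at 0 and that median was 0. Such values can therefore move even where a scaling shifts all measured differences alike. For 7 factors against primary the values were 0.30 (quantile), -0.0083 (normexp), 0.088 (mean probes), 0.38 (dimmest probe) and 0.17 (no filter on dim probes). For 8 factors they were -0.49 (median scaling and unscaled), 0.27, -0.43, -0.39, -0.14 and -0.27, and between the induced cultures -0.12 (quantile). The large-minus-small difference was 0.45 and 0.69 (mean and dimmest probes, 7 factors) and 0.41, 0.52 and -0.016 (mean, dimmest, core only, 8 factors). Unscaled, 64 genes were higher and 0 lower (7 factors), 51 and 1 (8 factors), and 4 were lower with 8 than 7 factors. With quantile normalization 4 were lower (7 factors), 19 higher and 7 lower (8 factors), and 4 lower with 8 than 7 factors. The dimmest probe gave 18 higher with 8 factors. From 1.5-fold, 27 were lower with 7 factors, and 4 higher and 28 lower between the induced cultures.

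Named genes turned direction as follows. Unscaled, 7 factors against primary gave Rps18 0.21, Rps12 0.34, Rps7 0.37, Rps4x 0.59, Rpl37a 0.41, Rpl7a 0.52, Rpl21 0.93, Rpl30 1.09 and Rps3 1.11. Unscaled, 8 factors gave Rps18 0.22, Rps12 0.24, Rpl37a 0.087, Rpl7a 0.22, Rps3 0.72, Rpl3l 0.20, Rpl35a 0.94, Rpl39 0.97, Rps27 0.95, Rpl5 1.25 and Rpl23 0.87. Quantile normalization gave Rpl5 0.43 (8 factors). Mean probes gave Rpl21 0.33 and Rps3 0.20 (7 factors), and Rpl5 0.47 and Rpl23 0.15 (8 factors). Dimmest probes gave Rpl21 1.85 and Rps3 1.41 (7 factors), Rpl21 2.16, Rps3 0.94, Rpl5 2.03 and Rpl23 1.76 (8 factors), and Rpl21 0.31 between the induced cultures. The causes were not tested. The count lower by any amount was chosen after seeing the data. Naming by a gene name column was not run, as the files have none, and leaving out saturated spots removed 0 spots. No paired analysis was possible because each group has 1 sample. Depth limits the few dim genes, such as Rpl3l, and no replicate gives the spread between cultures.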
